A study of Ictalurus punctatus with 24 samples.

Results

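A group of transcripts labelled exocrine pancreas, with digestive enzyme genes among them, was followed in the livers and intestines of channel catfish. The group holds 28 of the 63022 transcripts in the deposited tables, chosen by their levels in both tissues. Levels are in CPM, the count of a transcript scaled by the column total of its library. A transcript was kept when its mean over 10 liver libraries was at least 200 CPM and when its level in control intestine replicate 2 and in high-frass intestine replicate 4 was at least 10 times that in each of 7 other intestine libraries (control replicates 1, 3 and 4, low-frass replicate 3 and high-frass replicates 1, 2 and 3), with values under 0.5 CPM taken as 0.5. Of all transcripts, 382 passed the liver limit and 33 the intestine limit. The mean liver level and 9 of the 12 intestine libraries therefore chose the members and are given here as description. The liver levels by diet, and the intestine libraries of low-frass replicates 1, 2 and 4, were not used.

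Fingerlings of the Marion strain of channel catfish (Ictalurus punctatus) were fed for 10 weeks on a basal diet with 0 g/kg (control), 50 g/kg (low-frass) or 300 g/kg (high-frass) of frass, the residue left by black soldier fly larvae. Frass replaced part of the soybean meal, wheat shorts and corn meal, and corn oil was lowered too, so the diets also differed in those ingredients. The larvae had been raised on distillers' grain. RNA from intestine and liver was sequenced in 4 libraries per diet and tissue, 24 in all, each a pool of several fish (3 by the sample labels, though the study's methods give another number), with the same pool codes used in both tissues.

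Exocrine pancreas is the tissue that makes the digestive enzymes of the gut. Its acinar cells load proteases as inactive zymogens, together with lipases and amylase, into granules that are released into the duct and reach the intestine. In many bony fishes, catfishes among them, acinar tissue does not form a compact organ but is scattered around the portal vessels, in part within the liver, which is then called a hepatopancreas. In a bulk liver sample, fewer acinar cells and less enzyme RNA per acinar cell cannot be told apart.

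Library totals ran from 12076582 to 15604418 counts in the 10 livers used for the diet comparison, and from 12534783 to 17371695 in the 12 intestines. A pair of liver libraries stood apart and were left out of the comparison, as in the study. The library labelled low-frass liver replicate 3 went against its tissue label. It had 14420 CPM of enterocyte markers, against 52.0 to 130.4 CPM in the 10 livers, and its hepatocyte markers summed to 2982 CPM, against 268963 to 356306 CPM. Hpxa, the plasma haem carrier made by hepatocytes, was at 0.324% of its mean in the 10 livers there, and the 28 members had a median of 0.352% of theirs. High-frass liver replicate 3 had the fewest counts (10494755). It is set beside the members' values below.

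The tissue labels were checked on marker lists. Hepatocyte markers took 26.9% to 35.6% of the counts in the 10 livers. The acinar enzyme list, of which 6 of 44 symbols were found in the annotation, included 5 members: prss1, ela2l, ela3l, cpb1 and pla2g1b. Ptf1a, a transcription factor that acinar cells need, was at 4.73 to 7.04 CPM in each of the 10 livers. It was also at 2.74 CPM in the library labelled low-frass liver replicate 3 and reached 3.57 CPM in intestine. Rbpjl and bhlha15, from the same list of acinar genes, were at 0 CPM and at most 0.0641 CPM in the 10 livers. Both have 2 annotated transcripts, a limit described below. The islet hormone and islet identity genes found, 19 of 28 listed symbols, summed to 0.745 to 6.73 CPM. Of their 34 transcripts, mnx1 alone had a mean of at least 1 CPM. Neither ins nor insb was in the annotation, so insulin was not measured under those symbols. Among the 19 genes, 8 have 2 or more annotated transcripts and share the limit described below. Erythrocyte markers, 5 of 12 symbols found, summed to 1.74 to 14.4 CPM, and 3 of these 5 genes share that limit. These low sums therefore do not show that islet or blood RNA was absent. Biliary and pancreatic duct markers were present, at 767 to 1053 CPM, with 4 of their 30 transcripts at a mean of 20 CPM or more.

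Of the 28 members, 9 carry a gene symbol and 19 are known only by a LOC identifier, to which the annotation used here attaches no name. The positions that follow are those of the Coco_2.0 assembly. Among the serine proteases, prss1 (chromosome 1, 6930818 to 6932847) takes its symbol from mammalian trypsin 1, the enzyme that activates the other zymogens, and ela2l (chromosome 5, 23189704 to 23192280) and ela3l (chromosome 22, 3610147 to 3614904) from pancreatic elastases, which digest proteins in the gut. Cpb1 (chromosome 1, 33514471 to 33525961) takes its symbol from carboxypeptidase B, which removes basic residues from the end of a peptide. Pla2g1b (chromosome 5, 692914 to 695603) is named after the pancreatic phospholipase A2 of mammals, which frees a fatty acid from phospholipids. C6ast4 (chromosome 27, 6365045 to 6370713) bears the symbol of a zebrafish astacin metalloprotease. Tryp (chromosome 1, 19485726 to 19490169) and cbpa1 (chromosome 8, 22255204 to 22261891) carry symbols to which the annotation used here attaches no role, and si:dkey-243k1.3 (chromosome 17, 4328277 to 4329867) has none either.

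Several members were neighbours on a chromosome. Chromosome 1 held 6 of them, and chromosomes 5 and 8 held 3 each. LOC108273518 and tryp lay 908 bp apart with no gene between, and LOC108269091 and cbpa1 4452 bp apart. LOC108257934 and LOC108257933, on chromosome 25, were separated by 3988 bp and 1 annotated gene, and LOC108259574 and c6ast4, on chromosome 27, by 8527 bp and 1 annotated gene. Tryp and its neighbour kept a nearly fixed proportion, with a ratio of tryp to LOC108273518 counts, not corrected for length, of 0.924 to 1.08 over the 10 livers. The ratio of cbpa1 to LOC108269091 was less steady, at 0.0996 to 0.299. How reads that match several places were treated is not given in the sources used here, so counts of close copies are uncertain.

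All 28 members belong to genes with a single annotated transcript, against 95.8% of the 382 transcripts past the liver limit and 53.1% of the protein-coding genes in the annotation. The authors counted by transcript, and in that mode a read in an exon shared by several transcripts has no single parent. Such a gene can still keep counts, as nucb2a did, with 2 annotated transcripts and a mean liver level of 36.8 CPM for XM_017478905.3. At the amylase locus, whether shared exons lowered the count of amy2a was not tested. Amy2a (chromosome 20, 24570997 to 24578300), whose product digests starch, has 2 annotated transcripts and had 2 counts over all 12 liver libraries. LOC108261946 (chromosome 20, 24583332 to 24588371), a member 5031 bp from amy2a with no annotated gene between, has 1 transcript and had 254588 counts. With this mode of counting, a gene with several transcripts could be expressed in acinar cells and be missing from the members.

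Together the members took a large share of each liver library. They made up 16.1%, 25.5%, 23.0% and 25.4% of the counts in the control livers, 18.8%, 14.3% and 18.6% in the low-frass livers (replicates 1, 2 and 4) and 29.6%, 15.6% and 20.8% in the high-frass livers (replicates 1, 2 and 4). The means were 22.5% ± 4.43 in the controls (SD, n = 4), 17.2% ± 2.56 in low-frass livers (SD, n = 3) and 22.0% ± 7.06 in high-frass livers (SD, n = 3). The diets overlapped. Control replicate 1 lay within the range of the low-frass livers, and the high-frass group held both the highest library and the second lowest of the 10. Outside the comparison, low-frass replicate 3 had 0.0745% and high-frass replicate 3 had 31.5%.

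**Figure D1:**
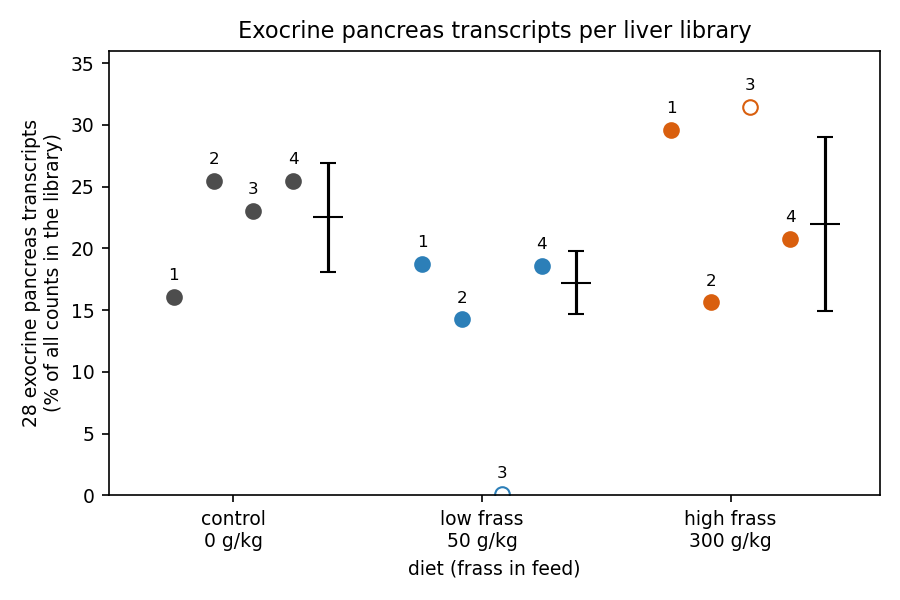
Summed counts of the 28 exocrine pancreas transcripts as a percent of all counts in each liver library, by diet, with the replicate number above each point. Filled points are the 10 livers compared, open points the left-out replicates 3, and the bar is the mean ± SD of the filled points. The high-frass livers spread from 15.6% to 29.6%, a range that contains all 4 controls and 2 of the 3 low-frass livers.

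By CPM from column totals, the protease genes overlapped between the diets in the liver, as the summed share did. The elastase gene ela2l stood at 24333, 35245, 32556 and 47987 CPM in the control livers, 27400.3, 20407 and 27146 CPM in the low-frass livers and 38260.5, 24298 and 31563 CPM in the high-frass livers. All 3 low-frass livers lay below control replicates 2, 3 and 4, but control replicate 1 was lower than 2 of them. Prss1 had 20112, 30277, 25681 and 28609 CPM in the control livers, 22674, 15457 and 21589.9 CPM in the low-frass livers and 33189.8, 19114 and 23389.9 CPM in the high-frass livers. By column total its groups overlapped in each comparison, with high-frass replicate 1 above every other liver and low-frass replicate 2 below. Ela3l was measured at 6699, 10416, 10068 and 8874 CPM in the control livers, 7735, 6271 and 7938 CPM in the low-frass livers and 14225, 6568 and 9588 CPM in the high-frass livers. Here too high-frass replicate 1 was the highest of the 10.

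Cpb1, the carboxypeptidase B gene, had 12093, 19172, 17362 and 22476 CPM in the control livers, 14118, 10092 and 14565 CPM in the low-frass livers and 20228, 11470.3 and 15072 CPM in the high-frass livers. Control replicate 4 gave its top value and low-frass replicate 2 its lowest. Tryp had 2847, 5929.9, 4235 and 4597 CPM in the control livers, 4015, 2802 and 3620.2 CPM in the low-frass livers and 4992, 3118 and 4171 CPM in the high-frass livers, highest in control replicate 2. Of the uncharacterised members, LOC108274430 had 18448, 27631, 27028 and 27089 CPM in the control livers, 20283, 16749 and 20814 CPM in the low-frass livers and 36982, 18603 and 22412 CPM in the high-frass livers. Control replicates 2, 3 and 4 lay close together there, with control replicate 1 far below them.

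The astacin gene c6ast4 was at 1226, 1729, 1733 and 998 CPM in the control livers, 1597, 1024 and 1451 CPM in the low-frass livers and 2117, 1124 and 1681 CPM in the high-frass livers, highest in high-frass replicate 1 and lowest in control replicate 4. The other 17 members are given by their lowest and highest level over the 10 livers. LOC108257933 ran from 13083 to 29424 CPM, LOC108269091 from 9259 to 18879 CPM, LOC108279340 from 7982 to 18480.5 CPM, LOC108257934 from 7509.7 to 17490.0 CPM and LOC108255297 from 6063 to 13059 CPM. LOC108264856 ran from 3359 to 7396 CPM, LOC108259574 from 3028 to 5909.8 CPM, LOC108273518 from 2857 to 5546 CPM, LOC108278502 from 2201 to 4263 CPM and LOC108265257 from 1098 to 3564 CPM. All 17 overlapped between the 3 diets in CPM by column total. LOC108277669 ran from 1137 to 2582 CPM, LOC108269193 from 967 to 2752 CPM, LOC108275518 from 573 to 1116 CPM and LOC108277361 from 554 to 1323 CPM. LOC108265761 ran from 361 to 962 CPM, LOC108263057 from 288 to 818 CPM and si:dkey-243k1.3 from 266 to 530.5 CPM.

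A few members departed from the common profile. Pla2g1b had 499.9, 807, 827 and 253 CPM in the control livers, 689, 376 and 596 CPM in the low-frass livers and 1387, 556 and 792 CPM in the high-frass livers, and its lowest value was in control replicate 4, a liver where ela2l and cpb1 were at their highest. LOC108271428 had 3211, 1240.1, 4469.9 and 3703 CPM in the control livers, 3476, 3588 and 2899 CPM in the low-frass livers and 5672, 1758 and 3458 CPM in the high-frass livers, with control replicate 2 lowest although that liver was among the top 3 for 25 of the 28 members. LOC108261946 had 1370.0, 934, 1535 and 1510.5 CPM in the control livers, 888, 716 and 1504 CPM in the low-frass livers and 2242, 1395 and 3161 CPM in the high-frass livers. Its top value, in high-frass replicate 4, was not shared by the others, since that liver was highest for 1 member only. Cbpa1 had 1981, 3384, 3754 and 1716 CPM in the control livers, 2487, 2088 and 2639 CPM in the low-frass livers and 5652, 2076 and 2129 CPM in the high-frass livers, with high-frass replicate 1 well above the rest.

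Over the 10 livers the ratio of the highest to the lowest library had a median of 2.26 per member and ran from 1.94 for LOC108278502 to 5.49 for pla2g1b. For 23 of the 28 it was under 3. The libraries that set these extremes were few. High-frass replicate 1 was highest for 16 members, control replicate 2 for 8, control replicate 4 for 3 and high-frass replicate 4 for 1. At the other end, low-frass replicate 2 was lowest for 17 members. Control replicate 1 was among the lowest 3 livers for 23 members and high-frass replicate 2 for 25.

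Most of this variation was common to the members. Taking each member as a share of the summed member counts, the SD of its log2 share over the 10 livers had a median of 0.16, against 0.37 for its log2 CPM, and 27 of the 28 shares varied less than the CPM. The exceptions with an SD of the share of 0.3 or more were LOC108271428, cbpa1, LOC108265257, LOC108261946, c6ast4 and pla2g1b. These are descriptions over 10 libraries, and the shares are tied to one another because they add up to the whole.

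**Figure D2:**
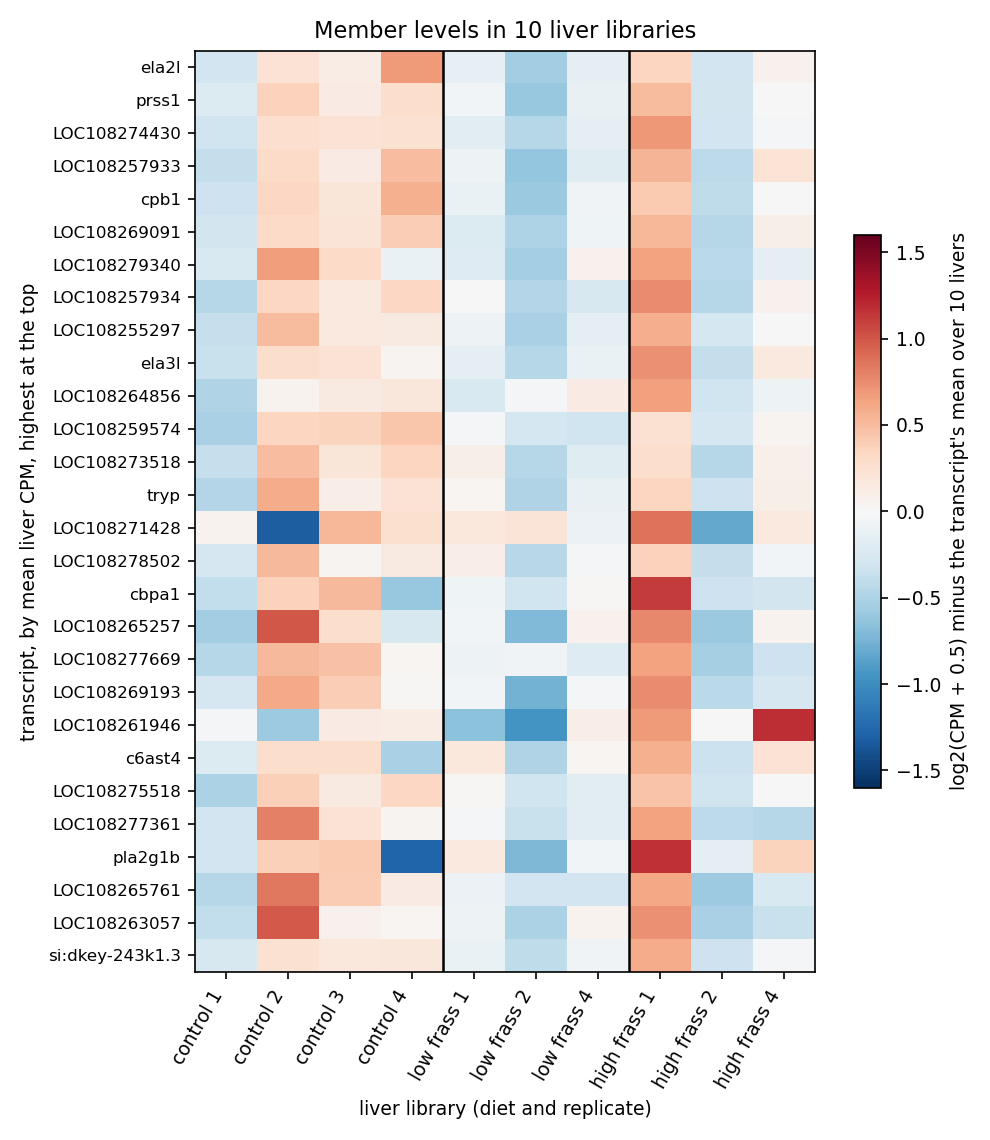
Level of each member, as log2(CPM + 0.5) minus its own mean over the 10 livers, for the 28 transcripts (vertical, ordered by mean liver CPM) in the control, low-frass and high-frass livers (horizontal, split by black lines). Most members of a column share a colour, red in high-frass replicate 1 and control replicate 2 and blue in low-frass replicate 2 and high-frass replicate 2, while pla2g1b in control replicate 4 and LOC108271428 in control replicate 2 are blue in columns that are mostly red.

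The first question was whether a low frass content changed these transcripts. No member passed the test in low-frass compared with control livers. A DEG (differentially expressed gene) was called by edgeR's quasi-likelihood test when its fold change was above 2 and its Benjamini-Hochberg adjusted p was under 0.05. The share of all 7213 transcripts called was 0%, and 0 of 28 members were called. At an unadjusted p under 0.05 there were 194 transcripts (2.69%) and 1 member, ela2l, whose log2 fold change was -0.65 (SE 0.29) with an adjusted p of 0.9997 by edgeR. DESeq2 also called 0 members and 0 transcripts. Every log2 fold change of a member was below 0, from -0.69 for LOC108265761 to -0.06 for LOC108271428, with a median of -0.53. Over all transcripts tested, 52.3% were below 0 and the median was -0.02. By CPM from column totals, no member had groups that did not overlap, against 0.61% of all transcripts lower and 3.84% higher without overlap. Overlap was not computed on the TMM-scaled levels that the test used, where it can differ. With column totals in place of TMM scaling the all-transcript median moved to 0.13, the members' median was -0.37 and 27 of 28 were below 0.

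By mean level, ela2l was at 24984 ± 3966 CPM in low-frass livers (SD, n = 3) and 35030.1 ± 9806 CPM in control livers (SD, n = 4). Cpb1, with a log2 fold change of -0.62 (SE 0.30), averaged 12925 ± 2463 CPM in low-frass livers and 17776 ± 4339.7 CPM in controls. LOC108259574 had one of the 3 smallest p values, and a log2 fold change of -0.56 (SE 0.26). Of the 28 members, 4 had a log2 fold change beyond 2 SE, these 3 among them. The share of all 7213 transcripts beyond 2 SE was not computed, and the members vary largely together, so this count shows no excess. No member was called after adjustment over all 7213 transcripts. LOC108271428, pla2g1b, LOC108264856 and c6ast4 had the values nearest 0, at -0.06 (SE 0.44), -0.22 (SE 0.42), -0.19 (SE 0.30) and -0.20 (SE 0.28). The members' median was -0.36 without control replicate 2 and -0.65 without control replicate 1.

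A high frass content gave no common direction against the control. In high-frass compared with control livers 17 members had a log2 fold change below 0 and 11 above, with a median of -0.05, beside 51.6% of all transcripts below 0 and a median of -0.01. The call rate was again 0% over all transcripts, with 0 of 28 members called by edgeR or by DESeq2, which called 3 transcripts in all. At an unadjusted p under 0.05 there were 374 transcripts (5.19%) and 1 member, LOC108261946, at 0.74 (SE 0.32) with an adjusted p of 0.961 in edgeR. It averaged 2266 ± 883 CPM in high-frass livers (SD, n = 3) and 1338 ± 279 CPM in controls (SD, n = 4). Groups overlapped in CPM by column total for all 28 members, while 2.38% of all transcripts were lower and 2.15% higher without overlap. The next smallest p values belonged to pla2g1b, at 0.67 (SE 0.42), and cbpa1, at 0.35 (SE 0.40), and both have their highest value in high-frass replicate 1. Without that library the cbpa1 value turned to -0.45 and the members' median to -0.42, with 26 of 28 below 0. Without high-frass replicate 2 the median was 0.18 and 27 were above 0. It was also above 0 without high-frass replicate 4 (0.09), control replicate 2 (0.09) or control replicate 4 (0.07), so the direction of the whole set depended on which livers were present.

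The diets were also set against each other. In high-frass compared with low-frass livers all 28 members had a log2 fold change above 0, from 0.28 for LOC108278502 to 1.25 for LOC108261946, with a median of 0.47, whereas 49.4% of all transcripts were above 0 and the median was -0.0039. With column totals the all-transcript median was -0.12 and the members' median 0.30, with 28 above 0. Call rates stayed at 0%, with 0 of 28 members called by edgeR or by DESeq2, which called 1 transcript in all. An unadjusted p under 0.05 was reached by 169 transcripts (2.34%) and by LOC108261946, which had 1.25 (SE 0.35) with an adjusted p of 0.9998 in edgeR. Without the filter on low counts edgeR called it, at 1.24 with an adjusted p of 0.00407, among 71 calls in 17475 transcripts. Its groups still overlapped in CPM, as did those of the other 27 members, beside 8.86% of all transcripts lower and 1.4% higher without overlap. For LOC108261946, 2242, 1395 and 3161 CPM in the high-frass livers stood against 888, 716 and 1504 CPM in the low-frass livers. The next smallest p values belonged to ela3l, at 0.63 (SE 0.31), and pla2g1b, at 0.90 (SE 0.45). Without high-frass replicate 1 the members' median was 0.060 and 17 of 28 were above 0. The 3 comparisons share their groups, so each liver enters more than one of them.

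**Figure D3:**
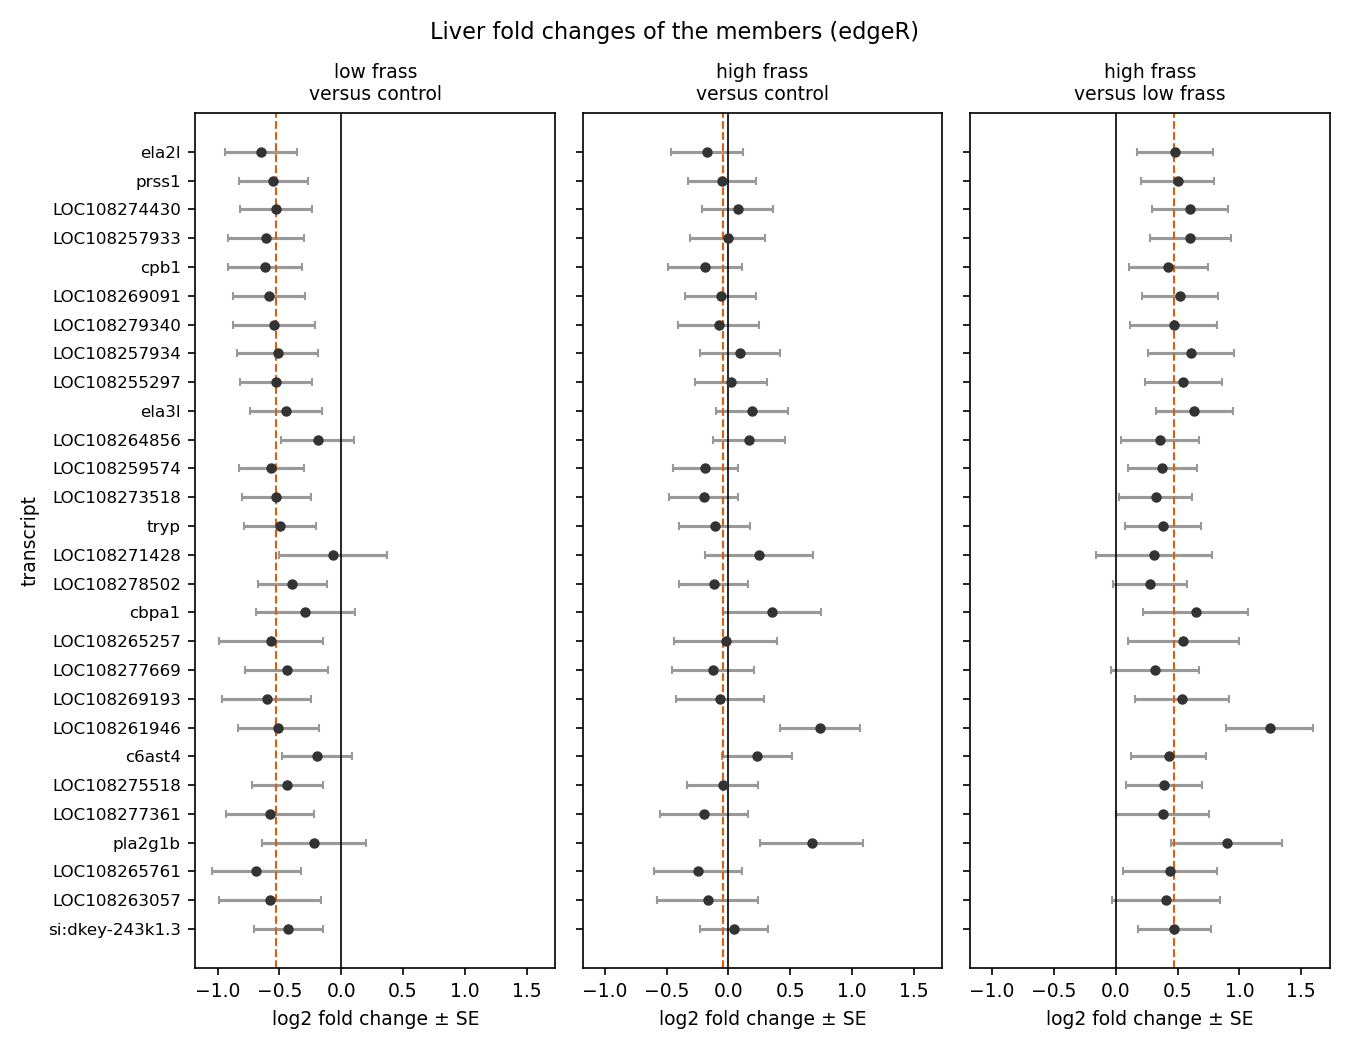
Log2 fold change and SE (edgeR) of each of the 28 members in the liver, in low-frass compared with control, high-frass compared with control and high-frass compared with low-frass livers, with the dashed line at the members' median. The medians are -0.53, -0.05 and 0.47, and LOC108261946 lies farthest to the right in both high-frass panels.

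The wider acinar machinery was examined through a list of secretory granule, endoplasmic reticulum and acinar identity genes, written as a list separate from the members. None of its 24 tested transcripts was called in any comparison. In low-frass compared with control livers 11 of the 24 were below 0, with a median of 0.09 and none at an unadjusted p under 0.05. In high-frass compared with control livers 5 of the 24 had an unadjusted p under 0.05, all higher, and the median was 0.14, beside 2.04% of all transcripts higher at that p. They were hsp90b1 (log2 fold change 0.82, SE 0.25), pdia4 (0.59, SE 0.19), hspa5 (0.73, SE 0.33), pdia6 (0.46, SE 0.21) and nr5a2 (1.35, SE 0.55), named after their values were seen. The first 4 are chaperones and isomerases of the endoplasmic reticulum, which hepatocytes also make, and nr5a2 is a nuclear receptor of both liver and pancreas. Nr5a2 has 4 annotated transcripts, and the transcript tested was at only 0.199 to 1.59 CPM over the 10 livers. In the same fit ptf1a had a log2 fold change of -0.17 (SE 0.21) in low-frass and of 0.14 (SE 0.21) in high-frass livers relative to the controls. Pdia2 varied from 29.7 to 189 CPM over the 10 livers and had -0.77 (SE 0.63) and -0.33 (SE 0.62). The hepatocyte list had 32 tested transcripts and 0 calls, with medians of -0.14 and -0.02 in low-frass and high-frass livers relative to controls. Enterocyte, erythrocyte, duct and islet lists had 4, 2, 6 and 3 tested transcripts and 0 calls in each comparison. At an unadjusted p under 0.05, high-frass compared with control livers also had 3 of 32 hepatocyte transcripts lower (apoa1a, apoa2 and tat) and 2 of 3 islet transcripts lower, beside 3.15% of all transcripts lower. Apoa1a was low in liver, at 0 to 5.84 CPM over the 10 livers with a mean of 1.11 CPM. The islet pair were the somatostatin genes sst1.1 and sst2, which were at 0 to 2.05 CPM and 0 to 2.56 CPM there. Low-frass compared with control livers had 1 such transcript in these lists, the enterocyte peptide transporter slc15a1a, higher. High-frass compared with low-frass livers had 4, with pdia4, hsp90b1 and the hepatocyte gene cp higher and slc15a1a lower. These too were named after their values were seen.

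High-frass liver replicate 3 can be set beside the 10 livers for its members. It was above all 10 for 15 members, below all 10 for 2 (LOC108269091 and c6ast4) and within their range for 11. Ela2l stood at 58533 CPM there, LOC108278502 at 9985 CPM and pla2g1b at 258 CPM. Of the 28 shares of the member counts, 23 were within 2-fold of the median share in the 10 livers, and pla2g1b was 2.04 lower and LOC108278502 1.08 higher on the log2 scale. The study left this library out for a low transcript integrity score, which was not recomputed here. Returned to the fit, it moved the members' median to 0.30 in high-frass compared with control livers and to 0.75 in high-frass compared with low-frass livers.

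In the intestine the same transcripts spanned a wide range of levels. Summed over the members, control replicate 2 had 23047 CPM and high-frass replicate 4 had 48830.1 CPM, and by the rule these are high. Low-frass replicates 1 and 2, which the rule did not use, had 12559.7 and 7257 CPM, and low-frass replicate 4 had 302 CPM. The other 7 libraries, 3 control, 1 low-frass and 3 high-frass, ran from 59.5 to 130.4 CPM. In low-frass replicates 1 and 2 all 28 members were at least 10 times the highest of those 7 libraries, and in low-frass replicate 4 none was. The 4 libraries with a high sum came from all 3 diets, 1 control, 2 low-frass and 1 high-frass.

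Single members followed the sums. Ela2l had 3256 CPM in intestine of control replicate 2, 1768 and 951 CPM in low-frass replicates 1 and 2 and 7422 CPM in high-frass replicate 4. Prss1 had 2779, 1532, 910.1 and 6952 CPM in the same libraries. High-frass replicate 4 was the highest, followed by control replicate 2 and low-frass replicates 1 and 2 in this order, for 26 of the 28 members, the exceptions being LOC108261946 and pla2g1b. Whether the acinar secretory list rose with the members could not be read from its sum. Even in the livers used for the diet comparison, it summed to only 1339 to 1600 CPM, below every intestine. In the intestines it summed to 1668 to 1839 CPM in the 4 libraries with a high member sum and to 1704.5 to 5123 CPM in the other 8. The genes of the list differed from one another. Pdia2, a disulphide isomerase of the mammalian pancreas, was at 2.54 to 7.58 CPM in the 4 libraries with a high sum and at 0 to 0.296 CPM in the other 8, and ptf1a at 1.52 to 3.57 CPM and 0.237 to 3.11 CPM. In the 8 other intestine libraries ela2l ranged from 7.38 CPM to 37.0 CPM and was never at 0.

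Set against the liver library with the same pool code, the intestine sum was 9.04% of the liver level for control replicate 2, 6.70% for low-frass replicate 1, 5.09% for low-frass replicate 2 and 23.5% for high-frass replicate 4. It was 0.162% for low-frass replicate 4 and 0.0368% to 0.0496% for 6 of the others. The seventh, low-frass replicate 3, gave 7.99%, a ratio set by the intestine-like library labelled liver. The same pool codes name both tissues, but whether the same fish went into both pools is not stated in the labels.

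Transcripts that mark hepatocytes were far below their liver level in all 12 intestines, and their order was not that of the members. Hpxa had 12.1, 0.41, 91.7 and 29.9 CPM in the intestines of control replicate 2, low-frass replicates 1 and 2 and high-frass replicate 4, and 0.288 to 97.2 CPM in the 8 other libraries, against 100536 to 189636 CPM in the 10 livers. In low-frass replicate 1 hpxa was thus close to the lowest of all intestines while the members summed to 12559.7 CPM. Fabp10a, the liver fatty acid binding protein of fish, was at 0.0586 to 29.1 CPM in the 4 libraries and 0 to 16.3 CPM in the other 8. The whole hepatocyte list summed to 6127 to 13516 CPM in the 4 libraries and to 841 to 9996 CPM in the other 8. The part of hepatocyte RNA in the member levels was not tested beyond these values. The ratio of prss1 to hpxa was 0.0815 to 0.285 in the 10 livers. It was 229 for control replicate 2, 9.93 for low-frass replicate 2 and 233 for high-frass replicate 4. For low-frass replicate 1 it was 3737, a value that rests on 7 hpxa counts. The other 8 intestines ran from 0.0937 in high-frass replicate 2 to 120 in low-frass replicate 4, so the ratio did not mark out the 4 libraries.

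**Figure D4:**
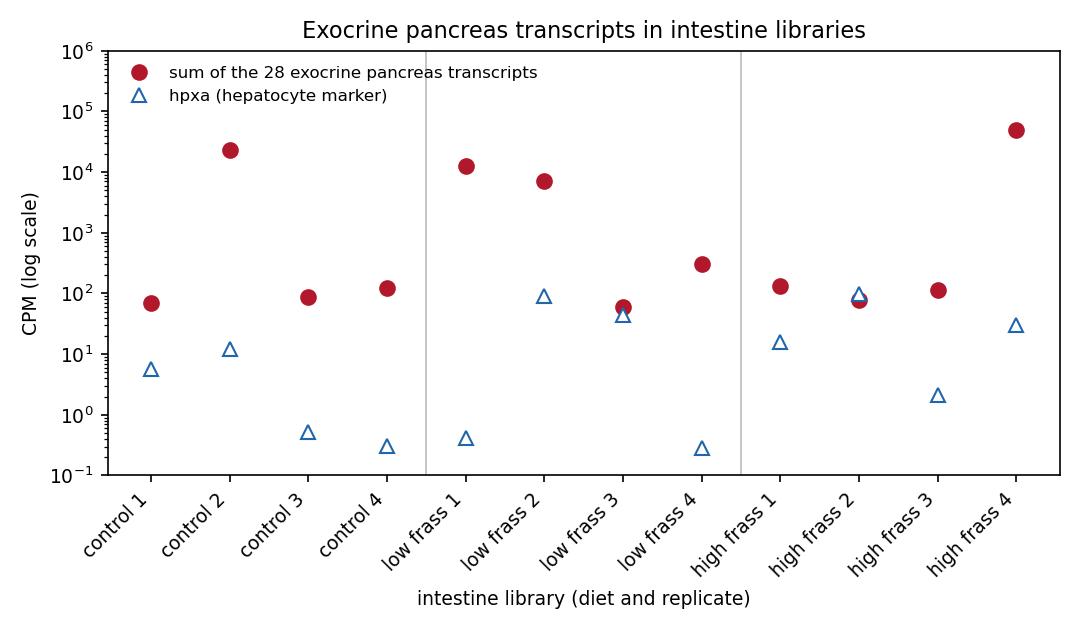
Sum of the 28 members (red circles) and of the hepatocyte marker hpxa (blue triangles) in CPM on a log axis, for each of the 12 intestine libraries by diet and replicate. The members reach 23047 CPM in control replicate 2, 12559.7 and 7257 CPM in low-frass replicates 1 and 2 and 48830.1 CPM in high-frass replicate 4, while hpxa stays under 100 CPM in all 12.

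Gut markers also differed between the intestine libraries. Fabp2, the fatty acid binding protein of absorptive cells in the upper intestine, was at 1303 to 2326 CPM in the 4 libraries with a high member sum, and slc10a2, the bile acid transporter of the lower intestine, at 9.49 to 83.4 CPM. The 8 other libraries ran from 7.34 to 3292 CPM for fabp2 and from 6.62 to 2267 CPM for slc10a2. Low-frass replicate 4, with 3292 CPM of fabp2, and control replicate 3, with 2387 CPM, shared the high fabp2 level without a high member sum. The part of these gut markers in the member levels was not tested.

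The make-up of the members' counts in these intestine libraries was set beside that in the liver, and where the counts came from was not tested. The rule used control replicate 2 and high-frass replicate 4, and did not use low-frass replicates 1 and 2. As a share of the member counts, 28 of 28 members in low-frass replicate 1 and 28 of 28 in low-frass replicate 2 were within 2-fold of their share in the liver of the same code. In control replicate 2 and in high-frass replicate 4 it was 26 of 28. The shares varied little among the 10 livers themselves, with a median SD of 0.16 on the log2 scale. Livers of other codes were not compared, so these counts do not single out the liver of the same code. LOC108271428 was 1.94 higher and LOC108277361 1.14 lower on the log2 scale in intestine of control replicate 2, where the liver had the lowest LOC108271428 of all. Pla2g1b was 1.79 lower and LOC108261946 1.38 lower in intestine of high-frass replicate 4, where the liver had the highest LOC108261946. LOC108271428, pla2g1b and LOC108261946 were also the 3 members whose share varied most over the 10 livers. In low-frass replicate 4, with 302 CPM in all, 25 of 28 were within 2-fold and LOC108261946 was 3.77 higher, at 33.3 CPM.

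**Figure D5:**
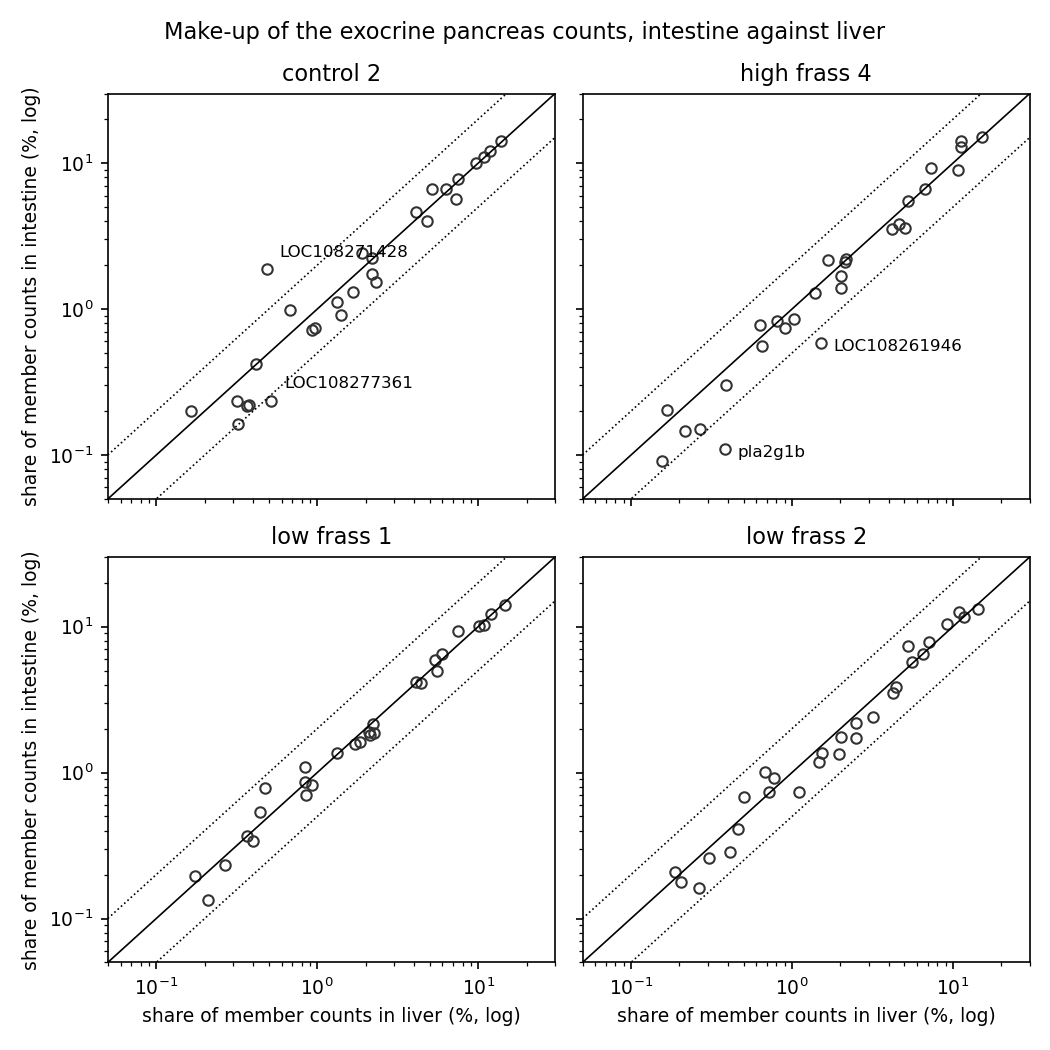
Share of the summed member counts held by each of the 28 members in the intestine (vertical, percent, log axis) against its share in the liver of the same pool code (horizontal, percent, log axis), for control replicate 2, high-frass replicate 4 and low-frass replicates 1 and 2. The solid line marks equal shares and the dotted lines 2-fold either way, with members beyond 2-fold named. In both low-frass panels all 28 points lie between the dotted lines.

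Transcripts just outside the limits had similar patterns in the intestine. Just inside the liver limit were si:dkey-243k1.3 (a mean of 359.5 CPM) and LOC108263057 (440.5 CPM), and just outside it wu:fd46g04 (132 CPM) and selenoe (94.2 CPM). On the intestine limit, LOC108261946 (a ratio of 14.5) and si:dkey-243k1.3 (34.3) were just inside, and endou (6.33) and LOC108256085 (6.03) just outside. Selenoe, a selenoprotein known from fish, was at 3.75 to 16.4 CPM in the 4 intestine libraries with a high member sum and at 0.115 to 0.461 CPM in the other 8. Wu:fd46g04 was at 6.54 to 79.3 CPM and at 0 to 0.233 CPM. In the liver its log2 fold change was -0.66 (SE 0.22) in low-frass and -0.53 (SE 0.22) in high-frass livers relative to controls. Selenoe had -0.58 (SE 0.39) and -0.29 (SE 0.38), endou -0.48 (SE 0.31) and -0.20 (SE 0.30), and LOC108256085 -0.60 (SE 0.36) and 0.02 (SE 0.36). None of these was called.

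The transcripts most like the members over the 10 livers were sought among all others, by the root mean square difference of centred log2(CPM + 0.5) from the members' mean profile. Endou was closest (0.16), followed by LOC108272402 (0.18), slc16a7 (0.18), chp1 (0.20), LOC108256085 (0.21), LOC108275985 (0.21), rhno1 (0.21), c7h4orf48 (0.22), LOC108276447 (0.22) and sparc (0.23). LOC108275985, rhno1 and c7h4orf48 had mean liver levels of 0.707, 0.817 and 1.36 CPM, near the added 0.5 CPM, which narrows their profile. The members' own values had a median of 0.17 and ran from 0.07 to 0.62. Endou, whose symbol denotes a uridylate-specific endoribonuclease, had a mean of 1317 CPM in liver and reached 60.2 to 254 CPM in the 4 intestine libraries, against 8.59 to 21.2 CPM in the other 8.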

How the data were processed

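RNA from intestine and liver pools was sequenced in 24 libraries. The authors trimmed reads with Trimmomatic 0.38, aligned them with STAR 2.7.8a to Coco_2.0 and counted exons by parent transcript with HTSeq 0.9.0, without strand and in union mode. The deposited values are these raw counts, whole numbers with no normalization or filter, for 63022 transcripts, of which 60559 matched the annotation. The p-values measure the spread between these pools, which may be technical in part.

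CPM was computed from column totals, and overlap between groups was read on these CPM. Liver counts were compared with edgeR 4.0.16 in R 4.3.3 (quasi-likelihood test, TMM scaling, default filter on low counts, 3 diets in one fit, Benjamini-Hochberg adjustment over 7213 transcripts). Low-frass and high-frass liver replicates 3 were left out, as in the study. DESeq2 1.42.0, other scalings and filters, a replicate block and each library left out were tried as alternatives. The standard error of a log2 fold change was derived from its F statistic.

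Every member was named, with the nearest transcripts on each side of the limits, the 3 smallest p values per comparison and the 10 transcripts most alike. A part of the rule that used product names could not be applied. Marker lists (acinar enzymes, acinar secretory genes, islet, hepatocyte, enterocyte, erythrocyte, duct) were matched by symbol. The members and lists were chosen with earlier results of these data known. Levels were not compared between genes, as transcript lengths were not used here.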

Additional observations from a re-analysis of the deposited data

Results flagged for a closer look

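In the control intestine, replicate 2 lay far from the other 3 libraries in the summed level of the 28 members, with 23047 CPM against 70.2 to 124 CPM. In the high-frass intestine, replicate 4 stood at 48830.1 CPM, far from 77.5 to 130.4 CPM in the other 3. Both libraries were used to choose the members, so these gaps are no finding.

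In the control livers LOC108274430 had 18448 CPM in replicate 1, far below the other 3 (27028 to 27631 CPM), and LOC108259574 had 3028 CPM in replicate 1 against 5541 to 5910 CPM. With the intestine libraries above, 4 of the 34 groups tested were flagged. Chance gives about 1 in 20 for independent groups, but the rule fixed the intestine gaps. The members also share the same control livers, so this count cannot be set against chance.

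High-frass liver replicate 3, which entered no comparison, had 31.5% of its counts in the members, above the 16.1% to 25.5% of the control livers.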

How the results depend on the processing

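No filter on low counts gave 60 called transcripts for low-frass against control livers, 133 for high-frass against control and 71 for high-frass against low-frass, where 1 member, LOC108261946, was called (log2 fold change 1.24). DESeq2 with the 3 diets in one fit called 3 transcripts for high-frass against control (abcc6a, LOC108265749 and LOC108271815) and 1 for high-frass against low-frass (LOC124627534), none a member and all named after their values were seen. Livers with the same replicate number correlated, after removal of the diet means, at r from -0.16 to 0.26 over 9 pairs. Pairs with unlike numbers were not computed, so whether the numbers pair the samples was not settled. The replicate block gave medians of -0.60, -0.16 and 0.43 and 1 call, LOC124627534 in high-frass against low-frass. The setting with all 12 livers returns the intestine-like library labelled low-frass replicate 3, which had 0.0745% of its counts in the members. With all 12 livers the members' medians were -0.94 for low-frass against control, 0.28 for high-frass against control and 1.15 for high-frass against low-frass. With high-frass replicate 3 alone put back, an alternative chosen after seeing the data, they were -0.52, 0.30 and 0.75. Leaving out 1 library at a time gave medians from -0.65 to -0.36 for low-frass against control, -0.42 to 0.18 for high-frass against control and 0.060 to 0.70 for high-frass against low-frass, and -0.45 to 0.64 for cbpa1 in high-frass against control. As CPM of the total without the members, the summed level averaged 208546 in low-frass and 293577 in control livers. Without high-frass replicate 1 the medians were -0.42 for high-frass against control and 0.060 for high-frass against low-frass. The rule's limits, varied, gave 27 to 30 members. The cause of these shifts was not tested. The standard error of a member's log2 fold change reached 0.47, which limits what single members can show.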

Other observations

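The somatostatin transcripts sst1.1 and sst2 were higher in each of the 4 intestine libraries with a high member sum than in the other 8. In low-frass replicate 1 they were far higher. Sst1.1 had 4.55 CPM in control replicate 2, 53.6 and 0.254 CPM in low-frass replicates 1 and 2 and 1.19 CPM in high-frass replicate 4, against at most 0.225 CPM in the other 8. Sst2 had 2.79, 56.7, 0.381 and 0.627 CPM in the same libraries, against at most 0.291 CPM. In low-frass replicate 2 both levels were within a few counts of the other 8. Somatostatin is made by islet delta cells and also by endocrine cells of the gut. Gcga, the glucagon precursor of islet alpha cells and gut endocrine cells, was at 0.313 to 1.35 CPM in the 4 libraries with a high member sum and at 0 to 0.494 CPM in the other 8. The somatostatin transcript sst1.2 did not follow, at 0 to 0.125 CPM in the 4 and at most 0.155 CPM in the other 8. Nor did the islet list as a whole, which summed to 39.7 to 163.9 CPM in the 4 and to 59.3 to 94.8 CPM in the other 8. High-frass replicate 4, at 39.7 CPM, and low-frass replicate 2, at 47.3 CPM, lay below all of the other 8.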
